A study of Mus musculus with 13 samples.

Results

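Sox5, Sox6, Sox8 and Sox10 are the closest relatives of Sox9 that were listed in a limb bud expression table, apart from Sox13. They were chosen by gene symbol, with earlier results of these data known, and each had 1 row, giving 4 of the 12880 genes listed. The study sequenced RNA from the limb buds of mouse embryos with and without Sox9, and asked which genes need SOX9 when cartilage formation begins. At E11.5 (embryonic day), 3 controls carried the alleles Sox9fl/- and 4 mutants, called Sox9null, were Sox9-/-. At E12.5, 3 controls were Sox9fl/fl and 3 mutants, called Sox9cKO, were Sox9fl/flPrx1CreER, in which an inducible Cre is driven by regulatory DNA of Prrx1, a gene of limb mesenchyme. The E11.5 controls therefore already lacked 1 Sox9 allele and the E12.5 controls did not, so age and genotype of the controls cannot be told apart. The sources used here do not state when Cre was induced or in which cells of these embryos it had acted.

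SOX proteins are transcription factors that bend DNA through an HMG box and recognise short motifs related to ACAAAG and ACAATG. Sox8, Sox9 and Sox10 form the SoxE group, whose proteins carry a transactivation domain. Sox5, Sox6 and Sox13 form the SoxD group, whose proteins dimerise through a coiled coil and have no known transactivation domain. In cartilage, SOX5 and SOX6 work beside SOX9 on enhancers of matrix genes such as Col2a1, while Sox10 is best known in neural crest cells, Schwann cells and pigment cell precursors.

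All 4 genes lie on the minus strand of GRCm38, the assembly also called mm10. Sox5 spans chr6:143828425-144781977 and Sox6 spans chr7:115470872-116038796. Sox8 is at chr17:25565892-25570686 and Sox10 at chr15:79154908-79165240. RefSeq promoter windows of this assembly (GRCm38.p6) were found for 3 of the 4 genes, with 1 window for Sox5, 6 for Sox6 and 1 for Sox8. The 250 bases before each start were searched on both strands for ACAAAG and ACAATG, whose matches share no position with each other. Of 32817 such windows in the mouse table, 25.2% held at least 1 match and 0.5% held at least 3. The windows below are shown because Sox5 and Sox6 were lower in the mutants and Sox8 was not, with matches on either strand in capitals. The Sox5 window and both Sox6 windows lie in introns of longer transcripts of the gene, directly before the start of a shorter transcript, and the Sox8 window lies just outside the gene.
Sox5, chr6:143947107-143947356, minus strand: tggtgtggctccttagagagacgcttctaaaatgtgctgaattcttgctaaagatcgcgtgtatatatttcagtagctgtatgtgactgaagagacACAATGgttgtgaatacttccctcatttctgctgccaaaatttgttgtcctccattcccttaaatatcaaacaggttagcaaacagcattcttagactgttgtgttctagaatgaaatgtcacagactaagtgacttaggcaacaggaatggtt
Sox6, chr7:115995087-115995336, minus strand: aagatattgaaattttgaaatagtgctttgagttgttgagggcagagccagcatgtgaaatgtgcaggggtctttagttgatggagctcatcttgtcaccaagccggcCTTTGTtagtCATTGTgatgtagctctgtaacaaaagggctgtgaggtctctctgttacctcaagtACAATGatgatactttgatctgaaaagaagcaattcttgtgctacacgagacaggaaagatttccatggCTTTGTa
Sox6, chr7:115824711-115824960, minus strand: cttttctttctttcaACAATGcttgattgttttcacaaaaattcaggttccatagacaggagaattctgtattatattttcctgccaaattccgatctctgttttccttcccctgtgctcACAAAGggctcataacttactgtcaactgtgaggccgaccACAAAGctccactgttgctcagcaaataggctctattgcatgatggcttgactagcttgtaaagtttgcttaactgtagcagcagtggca
Sox8, chr17:25570687-25570936, minus strand: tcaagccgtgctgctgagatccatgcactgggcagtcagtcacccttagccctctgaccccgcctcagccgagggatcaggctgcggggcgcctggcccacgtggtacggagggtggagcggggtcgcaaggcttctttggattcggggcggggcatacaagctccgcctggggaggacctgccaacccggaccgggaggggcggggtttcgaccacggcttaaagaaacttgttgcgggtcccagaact
The Sox5 window held 1 match, the Sox6 windows shown held 4 and 3, and the Sox8 window held 0, as did the window of Sox13 (72.4% G and C), the SoxD gene that was not lower in the mutants. Over all 6 Sox6 windows, 5 had a match, and those printed were picked for having the most. The Sox6 window that reaches beyond the gene, which is not printed, held 1 match. The shares over all windows are per window, so a gene with 6 windows has more chances of a match than a gene with 1. Whether matches relate to the mutant levels was not tested. The windows differ in base composition, with 39.6% G and C in the Sox5 window, 41.6% in each of the printed Sox6 windows and 65.6% in the Sox8 window. A match is a short run of letters and does not show that a protein binds there.

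Levels are normalized RPKM (reads per kilobase of gene, scaled to library depth) as the authors gave them. This puts genes on a scale per length, but the gene lengths used are not stated. Orders, ratios and shares between genes depend on those lengths. In the E11.5 controls, Sox8 (8.90 ± 1.35 RPKM, SD, n = 3), Sox6 (8.84 ± 3.45) and Sox5 (7.45 ± 2.09) had overlapping values, and Sox10 was lower (2.05 ± 0.694). Sox9 itself stood at 40.7 RPKM ± 7.47 (SD, n = 3). In the E12.5 controls Sox6 was highest of the 4 (20.2 ± 2.64 RPKM, SD, n = 3), Sox8 (9.73 ± 0.534) and Sox5 (9.15 ± 0.711) overlapped, and Sox10 was lowest (3.57 ± 0.354). In Sox9null the order was Sox8, Sox5, Sox6 and Sox10, where Sox5 and Sox6 overlapped. In Sox9cKO it was Sox8, Sox6, Sox5 and Sox10, where Sox8 and Sox6 overlapped at their edges.

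The targeted gene was measured as a check of the labels. Sox9 read 35.8, 49.3 and 37.2 RPKM in the E11.5 controls and 20.6, 25.7, 25.0 and 22.7 in Sox9null, and fell by 0.76 on the log2 scale (limma, adjusted p = 0.036). At E12.5 it read 37.5, 35.2 and 35.9 RPKM in the controls and 35.1, 28.7 and 32.2 in Sox9cKO, a log2 difference of -0.18 (limma, adjusted p = 1). The mutants were lower without overlap at both ages, as were 1.06% of all genes at E11.5 and 8.50% at E12.5. At E12.5 the highest mutant, 35.1 RPKM, nearly met the lowest control, 35.2 RPKM. Much Sox9 RNA was still counted in each mutant group. A value over the whole gene does not tell RNA of the deleted part from RNA of the rest. The E11.5 call was lost (limma adjusted p up to 0.139) when any 1 of 11 of the 13 libraries was left out; the 2 exceptions were E11.5 control 1 and Sox9cKO 2. In such bulk tissue, fewer cells of a type and less RNA per cell cannot be told apart.

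The libraries carry structure that touches the results. Clustering by the correlation of all genes split the E11.5 libraries: controls 1 and 3 grouped with Sox9null 3 and 4 (a set of 4), and control 2 grouped with Sox9null 1 and 2 (a set of 3), with pairwise r of 0.979 to 0.989 within sets and 0.938 to 0.966 between them. Y-linked genes were at male levels in E11.5 control 1 and Sox9null 3, and at E12.5 in all 3 controls but in Sox9cKO 3 alone. Genes of red blood cells were higher in the mutants: 20 of 20 listed erythroid genes lay above 0 at each age, with 0 called at E11.5 and 2 at E12.5, and their summed level was 725 to 776 RPKM in the E12.5 controls and 986 to 1210 in Sox9cKO. At E11.5 that sum was 925 to 1010 RPKM in the controls and 960 to 1610 in Sox9null. Limb mesenchyme genes (14 of 14 listed) had sums of 494 to 509 and 486 to 514 RPKM at E11.5 and of 464 to 479 and 466 to 489 at E12.5, in controls and mutants. What part these had in the differences below was not tested, beyond the within-set and within-sex values given.

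**Figure D1:**
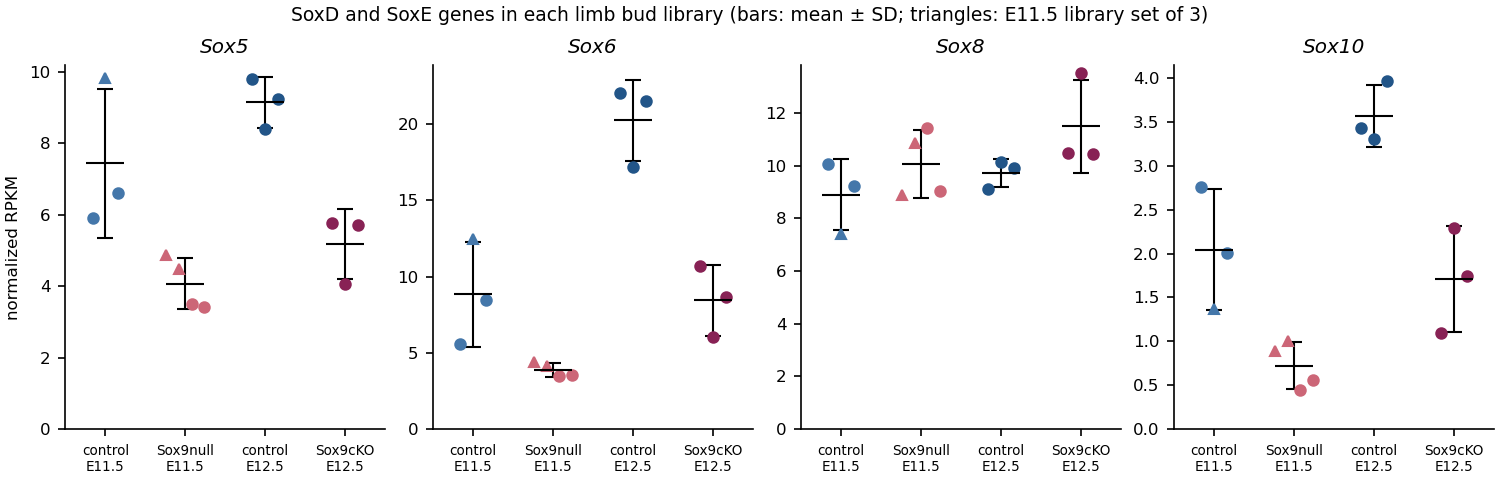
Normalized RPKM of Sox5, Sox6, Sox8 and Sox10 in each of the 13 libraries by group; points are libraries, horizontal bars are means with SD, and triangles mark the E11.5 library set of 3. Sox5 and Sox6 are lower in the mutants with no overlap at either age, as were 0.543% of all genes, and Sox8 is not. Sox10 is also lower without overlap, which is partly fixed by its listing through the E12.5 controls.

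Among the SoxD genes, Sox6 was the member that differed most between groups. At E11.5 it read 5.58, 12.45 and 8.48 RPKM in controls 1 to 3 and 4.41, 4.11, 3.47 and 3.51 in Sox9null 1 to 4. Every Sox9null library lay below every control, and the controls were spread more widely than the mutants. The means were 8.84 ± 3.45 (SD, n = 3) and 3.87 ± 0.460 RPKM (SD, n = 4), 2.28-fold lower in Sox9null. The log2 difference was -0.96 (SE 0.220), with a limma adjusted p of 0.416 over all genes, so it did not pass the threshold of 0.05.

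At E12.5, Sox6 read 22.0, 17.2 and 21.5 RPKM in the controls and 10.7, 6.02 and 8.67 in Sox9cKO. The highest mutant library was well below the lowest control. The mean was 20.2 ± 2.64 RPKM in the controls and 8.45 ± 2.33 in Sox9cKO (SD, n = 3 each), 2.40-fold lower. The log2 difference was -1.19 (SE 0.235; limma adjusted p = 0.083). Adding library set to the fit gave the same difference a limma adjusted p of 0.0248. The E12.5 libraries were not split into sets, so that term does not adjust this difference. It lowered the spread that all libraries share (SE 0.198). Sox6 was called in 3 of 25 alternatives at E12.5 (limma adjusted p 0.0248 to 0.445) and in 0 of 25 at E11.5 (0.061 to 1).

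Sox5 encodes the other SoxD protein that partners SOX9 in cartilage. It read 5.90, 9.82 and 6.62 RPKM in the E11.5 controls and 4.87, 4.49, 3.51 and 3.42 in Sox9null. The groups did not overlap, and control 2, which was also highest for Sox6 and Sox9, stood above the other controls. The means were 7.45 ± 2.09 (SD, n = 3) and 4.07 ± 0.717 RPKM (SD, n = 4), 1.83-fold lower in Sox9null, and the log2 difference was -0.72 (SE 0.165; limma adjusted p = 0.416). At E12.5 it read 9.81, 8.40 and 9.25 RPKM in the controls and 5.78, 4.05 and 5.73 in Sox9cKO. The groups again did not overlap, and Sox9cKO was 1.77-fold lower in the mean (9.15 ± 0.711 against 5.18 ± 0.982 RPKM, SD, n = 3 each). The log2 difference was -0.73 (SE 0.177; limma adjusted p = 0.194). Adding library set to the fit, Sox5 passed the test at both ages, with limma adjusted p of 0.0111 at E11.5 and 0.0168 at E12.5. At E12.5 the term again lowered the shared spread (SE 0.112) without adjusting the difference, since those libraries were not split. The set term was the only 1 of 25 alternatives to call Sox5 at either age (limma adjusted p up to 1 and 0.744 in the others). It raised the count of all called genes from 7 to 41 at E11.5 and from 25 to 105 at E12.5.

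Sox10, a SoxE gene, was the least abundant of the 4. It read 2.76, 1.37 and 2.01 RPKM in the E11.5 controls and 0.893, 0.998, 0.441 and 0.557 in Sox9null. The lowest control lay just above the highest mutant library. The means were 2.05 ± 0.694 (SD, n = 3) and 0.722 ± 0.266 RPKM (SD, n = 4), and the log2 difference was -0.81 (SE 0.192; limma adjusted p = 0.416). At E12.5 it read 3.43, 3.31 and 3.97 RPKM in the controls and 1.09, 2.29 and 1.74 in Sox9cKO, 2.09-fold lower in the mean and without overlap. The log2 difference was -0.78 (SE 0.205; limma adjusted p = 0.261). Genes were listed by the authors where the mean of at least 1 group reached 3 RPKM, and the E12.5 controls were the only group in which Sox10 did, so its lower level in the other groups is partly fixed by that listing. Sox5, Sox6 and Sox8 exceeded 3 RPKM in the mean of all 4 groups.

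Sox8, the most abundant SoxE gene here after Sox9, did not follow the other 3. It read 10.1, 7.41 and 9.23 RPKM in the E11.5 controls and 8.90, 10.9, 11.4 and 9.02 in Sox9null, so the groups overlapped. The means were 8.90 ± 1.35 (SD, n = 3) and 10.1 ± 1.29 RPKM (SD, n = 4), and the log2 difference was 0.16 (95% CI -0.10 to 0.42; limma adjusted p = 1). At E12.5 it read 9.12, 10.1 and 9.92 RPKM in the controls and 10.5, 13.5 and 10.5 in Sox9cKO. Each mutant library was above each control, by little except in Sox9cKO 2, and 1483 of 12880 genes were likewise higher without overlap. The log2 difference there was 0.21 (95% CI -0.07 to 0.49; limma adjusted p = 1).

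Sox10 is left out of the counts of lower genes, since its listing rests on the E12.5 controls. Of the other 3 members, 2 (Sox5 and Sox6) were lower without overlap at E11.5, against 1.06% of all genes, and the same 2 at E12.5, against 8.50%. At both ages 0.543% of all genes were lower without overlap. At an adjusted p under 0.05, 0 of the 4 were called at E11.5, against 0.0543% of all genes (7 of 12880, all lower), and 0 of the 4 at E12.5, against 0.194% (25 genes). At an unadjusted limma p under 0.05, 363 genes passed at E11.5 and 697 at E12.5; Sox5 (0.000993 and 0.00152), Sox6 (0.000992 and 0.000296) and Sox10 (0.00126 and 0.00272) were among them at both ages. An exact two-sided permutation test gave each of these 3 genes the smallest p the design allows, 0.0571 at E11.5 (4 libraries against 3) and 0.1 at E12.5 (3 against 3), neither of which can reach 0.05. For Sox8 it gave 0.343 and 0.1. For Sox10, the E12.5 p of either test is partly fixed by its listing.

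The mutant effects at the 2 ages came from separate libraries and different Sox9 alleles, and were averaged to use all 13 libraries. In this mean of the log2 differences Sox6 fell by 1.07 (SE 0.161; limma adjusted p = 0.0122), Sox5 fell by 0.72 (SE 0.121; limma adjusted p = 0.0200) and Sox10 fell by 0.79 (SE 0.141; limma adjusted p = 0.0298). Sox8 had a mean difference of 0.19 (95% CI -0.005 to 0.38; limma adjusted p = 1). Leaving Sox10 aside, whose call is partly fixed by its listing through the E12.5 controls, 2 of the other 3 were called, against 0.505% of all genes (65 of 12880, of which 49, or 0.380%, were lower). Sox9 fell by 0.47 in the same fit (limma adjusted p = 0.0251), a call kept in 16 of 24 alternatives. The exact permutation of labels within each age gave p = 0.00286 for Sox5 and Sox6, the smallest possible, and 0.06 for Sox8. It also gave 0.00286 for Sox10, where the E12.5 part is partly fixed by the listing.

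These calls differed in how far they rested on single libraries. The Sox6 call was lost only without E12.5 control 1 (limma adjusted p = 0.0532) among 24 alternatives. The Sox5 call was lost without E11.5 control 3 (0.0528), E12.5 control 1 (0.0861), E12.5 control 3 (0.0759), Sox9cKO 2 (0.0592) or Sox9cKO 3 (0.0516), and with replicate number as a block. The Sox10 call was lost in 12 of 23 alternatives, among them the omission of any 1 library other than E11.5 control 2, Sox9null 1, Sox9null 2 and Sox9cKO 2 (limma adjusted p 0.053 to 0.108). None of the 4 was called for a difference between the ages in its mutant effect, and the intervals were wide: the difference, E12.5 minus E11.5, was -0.01 for Sox5 (95% CI -0.53 to 0.52), -0.23 for Sox6 (95% CI -0.94 to 0.47), 0.05 for Sox8 (95% CI -0.33 to 0.43) and 0.03 for Sox10 (95% CI -0.58 to 0.65). All 4 had a limma adjusted p of 1 there, against 0.0311% of all genes called. The ages also differ in how Sox9 was removed and in the control genotype. Age and allele therefore cannot be told apart in this difference.

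**Figure D2:**
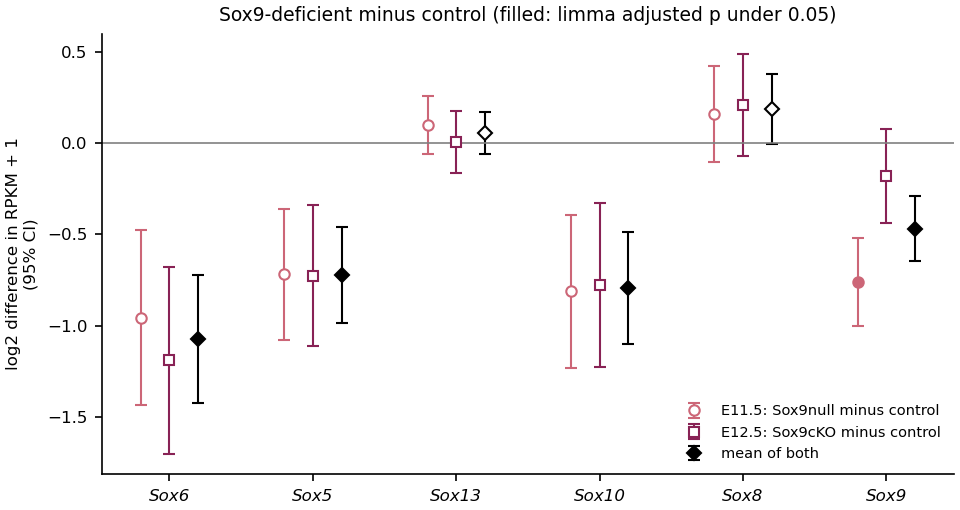
Log2 difference in RPKM + 1 of Sox9-deficient minus control libraries, with 95% confidence intervals, at E11.5, at E12.5 and for the mean of both ages, for the SoxD genes (Sox6, Sox5, Sox13) and SoxE genes (Sox10, Sox8, Sox9). Filled symbols passed the limma adjusted p of 0.05; Sox6, Sox5, Sox10 and Sox9 have filled symbols for the mean, and Sox13 and Sox8 have none.

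Within the E11.5 library set of 4 (2 mutants, 2 controls) the log2 differences were -0.70 for Sox5, -0.81 for Sox6, 0.07 for Sox8 and -1.17 for Sox10. Within the set of 3 (2 mutants, 1 control) they were -0.93, -1.36, 0.37 and -0.29 in the same order. Each gene kept its sign in both sets, though for Sox10 the difference was smaller in the set of 3 and for Sox6 it was larger. With Y-linked signal, the 3 E12.5 controls can be set only against Sox9cKO 3, and the log2 differences were then -0.59 for Sox5, -1.13 for Sox6, 0.10 for Sox8 and -0.74 for Sox10. Among E11.5 libraries without Y-linked signal (3 mutants, 2 controls) they were -0.80 for Sox5, -1.18 for Sox6, 0.19 for Sox8 and -0.57 for Sox10.

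Between E11.5 and E12.5 the control libraries differed by age and by Sox9 genotype together. Sox6 rose by 1.16 on the log2 scale (SE 0.235; limma adjusted p = 0.00562), a 2.29-fold higher mean without overlap. Sox10 was higher by 0.61 (SE 0.205; limma adjusted p = 0.054), also without overlap. Sox5 had a log2 difference of 0.29 (limma adjusted p = 0.256) and Sox8 one of 0.12 (limma adjusted p = 0.512), both with overlapping groups. Sox10 is left out of the counts here, since only the E12.5 controls brought it to the listing level of 3 RPKM. Higher levels at E12.5 were common. Of Sox5, Sox6 and Sox8, Sox6 alone was called higher, against 16.5% of all genes. Over all genes 2126 were called higher and 668 lower, or 1364 and 1935 with each library centred on its median. Sox6 alone of them was also higher without overlap, against 32.6% of all genes.

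In the Sox9-deficient libraries, which also differ in how Sox9 was removed, Sox6 rose by 0.93 (SE 0.220; limma adjusted p = 0.0155), from 3.87 to 8.45 RPKM in the mean. The E12.5 mutant level of Sox6 was thus close to its E11.5 control level of 8.84 RPKM. Without Sox9cKO 1 the Sox6 rise was 0.76 and its limma adjusted p 0.072. Sox10 rose by 0.64 (SE 0.192; limma adjusted p = 0.0374), a call that was lost without any 1 of 8 libraries (Sox9null 1, 3 and 4, all 3 E12.5 controls, Sox9cKO 2 and 3; limma adjusted p 0.0503 to 0.161). Sox5 had a log2 difference of 0.28 (limma adjusted p = 0.232) and Sox8 one of 0.17 (limma adjusted p = 0.311). Thus 2 of the 4 were called higher, against 14.5% of all genes (1865 higher and 674 lower, or 1152 and 1393 after centring), and the same 2 were higher without overlap, against 23.7%. These age comparisons use the same libraries as the mutant comparisons.

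The levels of the SoxD genes relative to each other shifted with both age and genotype. The ratio of Sox6 to Sox5 RPKM was 1.17 ± 0.19 in the E11.5 controls (SD, n = 3), 0.959 ± 0.058 in Sox9null (SD, n = 4), 2.21 ± 0.142 in the E12.5 controls and 1.62 ± 0.20 in Sox9cKO (SD, n = 3 each). At E12.5 the highest mutant ratio, 1.85, was below the lowest control ratio, 2.05, whereas at E11.5 the groups overlapped. Sox13, the third SoxD gene, was at 12.4 ± 0.893 RPKM in 3 E11.5 controls and 13.4 ± 1.16 in 4 Sox9null libraries (SD). At E12.5 it was at 11.0 ± 0.674 RPKM in the controls and 11.0 ± 0.308 in Sox9cKO (SD, n = 3 each). Sox13 therefore supplied 44.1% ± 7.70 of the summed SoxD RPKM in the E11.5 controls (SD, n = 3), 62.8% ± 1.73 in Sox9null (SD, n = 4), 27.4% ± 3.14 in the E12.5 controls and 45.3% ± 6.96 in Sox9cKO (SD, n = 3 each). The summed SoxD level was 28.7 and 21.3 RPKM at E11.5 in controls and Sox9null, and 40.4 and 24.7 at E12.5 in controls and Sox9cKO.

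Among the SoxE genes, Sox9 supplied most of the RNA in every library, from 64.5% to 84.9% of the sum. Sox8 supplied 17.5% ± 4.2 of the SoxE sum in 3 E11.5 controls and 29.3% ± 1.25 in 4 Sox9null libraries (SD), without overlap. At E12.5 it supplied 19.7% ± 1.34 in the controls and 25.5% ± 4.29 in Sox9cKO (SD, n = 3 each), again without overlap. Since Sox9, the targeted gene, is most of the sum, the Sox8 share rises where Sox9 falls, even with Sox8 unchanged. The summed SoxE level was 51.7 RPKM in the E11.5 controls and 34.3 in Sox9null, 49.5 in the E12.5 controls and 45.2 in Sox9cKO. The level of Sox8 stayed within 7.41 to 13.5 RPKM over all 13 libraries, while Sox9 ranged from 20.6 to 49.3 RPKM.

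**Figure D3:**
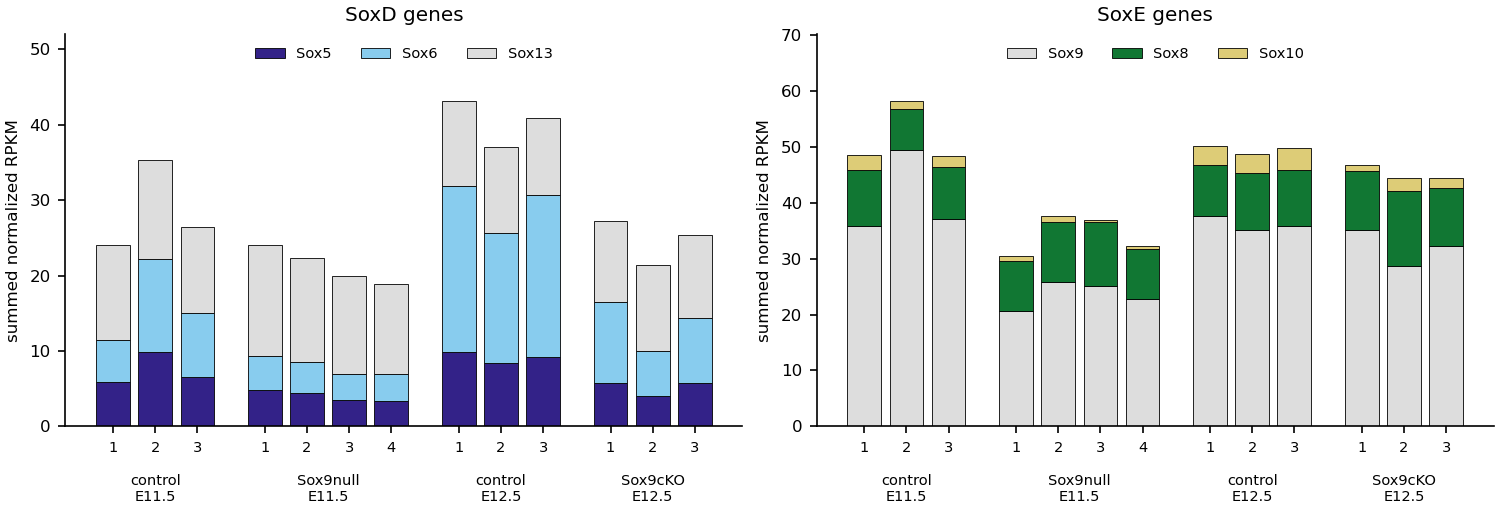
Summed normalized RPKM of the SoxD genes (left) and SoxE genes (right) in each library, numbered by replicate within its group, with each gene as a segment. The Sox5 and Sox6 segments are shorter in the mutants while Sox13 keeps about 10.2 to 14.8 RPKM, and Sox9 makes up 64.5% to 84.9% of each SoxE bar.

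Of 15 other Sox family genes looked for, 8 were listed, namely Sox4, Sox7, Sox9, Sox11, Sox12, Sox13, Sox17 and Sox18. Sox9 was the only one called in the mutants, at E11.5 and in the mean of both ages, and 0 of the 8 were called at E12.5. The median log2 difference of the 8 was 0.07 at E11.5 and 0.03 at E12.5, against 0.01 over all genes at each age. Between the ages, Sox11, a SoxC gene of progenitor cells, fell in controls and in Sox9-deficient libraries, from 88.1 to 60.5 and from 82.3 to 67.9 RPKM in the mean. In the Sox9-deficient libraries Sox13 also fell and Sox9 rose, and the calls of Sox11, Sox13 and Sox9 there were lost without any 1 of 7, 5 and 2 libraries. Sox12, Sox4 and the endothelial genes Sox7, Sox17 and Sox18 were not called in any of the 6 comparisons.

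The SOX trio is known for activating cartilage matrix genes, and 19 of 24 such genes looked for were listed. At E11.5, 3 of the 19 fell (Col9a2, Col9a3 and Lect1) and 0 rose. At E12.5, 5 fell (Acan, Chst11, Col11a2, Matn1 and Mia1) and 0 rose. Acan, Matn1 and Mia1 reached the listing level of 3 RPKM only in the E12.5 controls. Their fall at E12.5 is therefore partly fixed by that listing. In the mean of both ages 12 of 19 fell, 0 rose and 7 did not pass, with a median log2 difference of -0.75 against 0.01 over all genes. These counts and this median include Acan, Matn1 and Mia1. Sox6 (-1.07) and Sox10 (-0.79) lay below that median and Sox5 (-0.72) just above it. Of 20 regulators of chondrogenic commitment looked for, 16 were listed. In the mean of both ages Nog, an inhibitor of BMP ligands, fell by 0.89 (limma adjusted p = 0.0198, and 0.052 to 0.0831 without any 1 of E11.5 controls 2 and 3, E12.5 controls 1 and 3, and Sox9cKO 2 and 3) and Foxc1, a forkhead factor, fell by 0.50 (limma adjusted p = 0.010), while 14 did not pass. Of 8 genes of condensing mesenchyme, 0 were called at either age, with medians of -0.03 and -0.09. These lists were put together with earlier results of these data known.

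Genes whose log2 levels tracked each member most closely over the 13 libraries were also found, as a description, since the libraries share their groups and preparation. Sox5 was closest to Col2a1, the main collagen gene of cartilage (Pearson r = 0.971 over 13 libraries; 0.977 within E11.5 and 0.990 within E12.5). Col2a1 stood at 60.8 ± 9.50 RPKM in the E11.5 controls (SD, n = 3), 32.6 ± 5.86 in Sox9null (SD, n = 4), 70.6 ± 3.34 in the E12.5 controls and 46.1 ± 5.35 in Sox9cKO (SD, n = 3 each). It fell by 0.75 in the mean of both ages (limma adjusted p = 0.00734), near the -0.72 of Sox5. Next for Sox5 came Sox6 (r = 0.921), Sorbs2 (0.919), Dab1 (0.904) and Itgb8 (0.898).

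Sox6 was closest to Sorbs2 (r = 0.982 over 13 libraries), Matn4 (0.980), Enpp1 (0.977), Kank1 (0.977) and Fgd4 (0.975). Enpp1 and Sorbs2, which was also named for Sox5, reached 3 RPKM only in the E12.5 controls. Their peak in that group is therefore partly fixed by the listing. Matn4, which encodes a matrilin of the extracellular matrix, stood at 4.02 ± 1.96 RPKM in the E11.5 controls (SD, n = 3), 0.263 ± 0.229 in Sox9null (SD, n = 4), 21.4 ± 4.66 in the E12.5 controls and 4.57 ± 3.85 in Sox9cKO (SD, n = 3 each). Its spread between groups was wider than that of Sox6: in the mean of both ages Matn4 fell by 2.06 on the log2 scale (limma adjusted p = 0.00949) and Sox6 fell by 1.07. Kank1, by contrast, tracked Sox6 over a narrow range, from 20.7 ± 0.379 RPKM in Sox9null (SD, n = 4) to 32.2 ± 2.17 in the E12.5 controls (SD, n = 3).

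Sox10 was closest to Rab11fip4 (r = 0.896 over 13 libraries), Dact2 (0.893), Slc4a2 (0.874), Vstm2b (0.873) and Enpp2 (0.867). Like Sox10, Dact2 and Vstm2b reached 3 RPKM only in the E12.5 controls, so a shared peak there is partly fixed by the listing. Enpp2, which encodes the lysophospholipase autotaxin, stood at 10.4 ± 0.982 RPKM in 3 E11.5 controls and 5.79 ± 0.774 in 4 Sox9null libraries (SD). At E12.5 it stood at 19.0 ± 0.788 RPKM in the controls and 11.4 ± 0.915 in Sox9cKO (SD, n = 3 each). For Sox8, Hvcn1 (r = 0.871), Meox1 (0.866), Gripap1 (0.856) and Dhdds (0.842) were among the closest, and without the 2 libraries farthest from the median of Sox8 their r was 0.541 to 0.772. Between the members, Sox5 and Sox10 had r = 0.731 and Sox6 and Sox10 had r = 0.785. Sox8 had r = -0.526 against Sox5, -0.275 against Sox6 and 0.035 against Sox10. Between Sox8 and Sox9, Pearson r was -0.356 over the 13 libraries, -0.494 within E11.5 and -0.952 within E12.5.

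**Figure D4:**
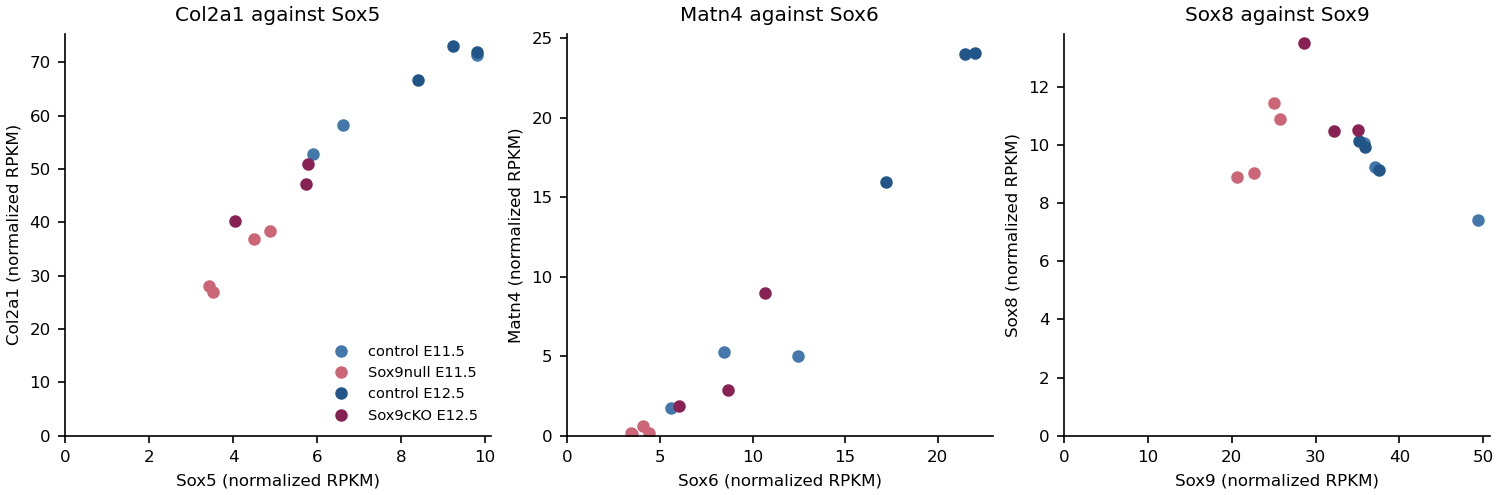
Normalized RPKM of Col2a1 against Sox5 (left), Matn4 against Sox6 (middle) and Sox8 against Sox9 (right) in the 13 libraries, coloured by group. Col2a1 and Sox5 lie along 1 line through all 4 groups, Matn4 is near 0 in Sox9null where Sox6 is below 5 RPKM, and Sox8 runs from 7.41 to 13.5 RPKM where Sox9 runs from 20.6 to 49.3.

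Since Sox10 marks neural crest derivatives, markers of those cells were set beside it. Of 19 Schwann cell and glial precursor genes, 7 were listed (Ednrb, Erbb3, Gas7, Gfra3, Itga4, Ngfr and Tfap2a), and the defining marker Foxd3 was not among the genes listed. At E11.5, 5 of the 7 lay below 0 and at E12.5 all 7 did, with medians of -0.04 and -0.19 against 0.01 over all genes, and 0 were called at either age. Their summed level was 40.9 to 50 RPKM in the E11.5 controls and 33.4 to 50.8 in Sox9null, and 69.7 to 73.4 in the E12.5 controls and 52.9 to 65.3 in Sox9cKO, where the groups did not overlap. Erbb3, the neuregulin receptor of Schwann cell precursors, was at 20.1 RPKM in the E12.5 controls and 14.6 in Sox9cKO (log2 difference -0.44, limma adjusted p = 0.398). The lowest of the 7 was Ednrb, an endothelin receptor, at -0.28 and -0.47, where Sox10 was at -0.81 and -0.78. In controls, 5 of the 7 were called higher at E12.5 than at E11.5, against 16.5% of all genes. Their median was 0.58, against 0.06 over all genes, and Sox10 was at 0.61. That value of Sox10 is partly fixed by its listing through the E12.5 controls. Of 10 pigment cell precursor genes, Kit alone was listed. Neuronal genes (5 of 10 listed) had medians of 0.18 at E11.5 and 0.21 at E12.5 with 0 called. The part of these cells in the lower Sox10 level was not tested.

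The authors' deposited table gives a p for a difference among the 4 groups, adjusted over all genes. In the authors' deposited table it was 0.00302 for Sox6, 0.00836 for Sox10, 0.0137 for Sox5 and 0.331 for Sox8, beside 0.00846 for Sox9 and 0.0573 for Sox13. That p covers age and genotype at once and does not say which groups differ.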

How the data were processed

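RNA-seq of 13 mouse limb bud libraries was used as deposited in 1 table of the series. The submitters' processing notes name CASAVA 1.8 and mm10; no aligner, counter, strand setting or annotation release is named in the labels or headers. The authors deposited normalized RPKM values and, per the file headers, listed every gene whose average reached 3 RPKM in 1 or more groups (12880 genes). All value columns hold this other, normalized unit, and the deposited p-value per gene is the authors' test over the 4 groups. Library read totals are unknown, so counting error could not be given; the RPKM of a library summed to between 244524 and 267508.

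Values were analysed as log2(RPKM + 1), which understates changes of low genes such as Sox10, with limma 3.58.1 in R 4.3.3 (trended prior, robust). Each of the 4 groups had its own mean and all 13 libraries shared the spread. A filter of 1 RPKM in 3 libraries removed no gene, p was adjusted by Benjamini-Hochberg over all genes, and calls were made at 0.05. The fit was tested on simulated data. In all, 6 comparisons were fitted: each mutant against the controls of its age, how those 2 effects differed, their mean, and the later against the earlier age in controls and in mutants. Exact permutation tests doubled the smaller tail. Per the file headers, limb buds of 3 or 4 embryos were used in each group, so replicates were taken as separate embryos.

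Named genes were the members, Sox9, other listed Sox genes, the 5 genes closest to each member by Pearson r of log2 values (predicted genes left out), list members that passed the test and up to 4 others per list. Of the closest genes, 1 is not reported here. The members and lists were chosen with earlier results of these data known. Coordinates came from GENCODE mouse release 21 and promoters from RefSeq. Alternatives were the pseudocount (0.5, 0.1), a filter of 5 RPKM, which left Sox10 out, median, quantile and trimmed-mean scaling, each age alone, terms for library set, sex and replicate number, another prior, and each library left out.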

Additional observations from a re-analysis of the deposited data

Results flagged for a closer look

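The share of the summed SoxD RPKM that came from Sox6 was 17.4% in Sox9null replicate 3 and 18.3% to 18.5% in the other 3 Sox9null libraries. That library stood apart from the rest of its group by 0.830 of the group's range. It was the 1 group value so marked among 19 examined, and chance marks about 1 in 20.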

How the results depend on the processing

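In the mean of the mutant effects over both ages, all alternatives kept Sox5 (-0.83 to -0.63), Sox6 (-1.20 to -0.95) and Sox10 (-1.23 to -0.71) below 0 and Sox8 (0.13 to 0.23) above it. The calls of Sox6, Sox5 and Sox10 were kept in 23 of 24, 18 of 24 and 11 of 23 alternatives; with 1 library left out, values ran from -1.20 to -0.95, from -0.79 to -0.63 and from -0.88 to -0.71. Sox10 also missed the threshold with quantile normalization (-0.77, limma adjusted p = 0.0922) and with sex as a term (-0.77, 0.0711). With the library set as a term, Sox5 was called at E11.5 (-0.79) and E12.5 (-0.73) and Sox6 at E12.5 (-1.19), Sox5 was called higher at E12.5 in controls (0.44) and in Sox9-deficient libraries (0.50), and Sox10 in controls (0.62). That term sets the E11.5 level of the age comparisons to that of the set of 4. It does not adjust the E12.5 mutant differences, since the E12.5 libraries were not split. Leaving out E11.5 control 1 or 2 also called Sox6 at E12.5 (-1.36 to -0.99 over all omissions). Sox10 in controls was called with a prior without trend (0.61) and ran from 0.44 to 0.77 over omissions. In Sox9-deficient libraries the Sox6 rise ran from 0.76 to 1.13 and that of Sox10 from 0.49 to 0.82, and Sox10 missed the threshold with median centring (0.57) and was at -0.004 with quantile normalization, which also put Sox8 in controls at -0.03. How quantile scaling moves such low values was not tested.

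The difference between the ages changed sign in 12 of 24 alternatives for Sox5, 7 of 23 for Sox10, 3 of 24 for Sox8 and 1 of 24 for Sox6. For Sox5 it was 0.003 and 0.01 with pseudocounts of 0.5 and 0.1, 0.02 with median centring, 0.07 with quantile normalization and 0.07 with the set term. For Sox10 it was -0.38 with quantile normalization. Over omissions it ran from -0.20 to 0.13 for Sox5, -0.49 to 0.03 for Sox6, -0.06 to 0.16 for Sox8 and -0.13 to 0.21 for Sox10.

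Samples share only a replicate number: same-numbered deviations had correlations of -0.43, 0.64 and 0.44 at E11.5 and 0.17, 0.03 and -0.12 at E12.5. With the replicate block, Sox5 (-0.69, limma adjusted p = 0.0645) and Sox10 (-0.77, 0.157) were not called in the mean effect, Sox10's difference between ages was -0.01, and counts of called genes were 16 at E12.5, 0 for the difference and 27 for the mean.

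Counts of called genes at E11.5 were 13 with median centring, 12 with trimmed-mean scaling, 0 with E11.5 libraries alone and 41 with the set term, and 2 to 8 over omissions. At E12.5 they were 57 with quantile normalization, 105 with the set term and 9 to 45 over omissions. For the difference they were 2 with either other pseudocount, the 5 RPKM filter or trimmed-mean scaling, and 0 to 10 over omissions. For the mean they were 258 with the set term and 22 to 76 over omissions. By age they were 5745 in controls and 4990 in Sox9-deficient libraries with the set term, and 1379 to 3374 and 707 to 2976 over omissions. Groups of 3 or 4 libraries and unknown depth limit the precision.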
